A study of Mus musculus with 6 samples.

Results

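The platelet-derived growth factor (PDGF) family was followed through the cells of the lower abdominal muscle (LAM), from the 4 ligand genes to the genes of their receptors. The family comprised 7 of the 16494 genes of the deposited matrix and was taken by gene symbol, whatever the level: the ligand genes Pdgfa, Pdgfb, Pdgfc and Pdgfd, the receptor genes Pdgfra and Pdgfrb, and the receptor-like gene Pdgfrl. All 7 were detected, with between 5381 (Pdgfc) and 88632 (Pdgfrl) unique molecular identifiers (UMIs, 1 per captured transcript) over all cells. LAM tissue came from 3 WT and 3 Aromhum (Arom) mice, all of them males of the FVB/N strain aged 9 to 10 weeks, and each mouse gave 1 droplet library of 3' transcript ends. The Arom mice carry the human aromatase gene CYP19A1 under its native promoters, so that androgen is converted to estrogen in their tissues, and were labelled with scrotal hernia, whereas the WT mice were labelled as controls. The human transgene was read in the Arom libraries (770, 797 and 787 UMIs) and gave 0 UMIs in each WT library.

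PDGF ligands are secreted dimers that activate the tyrosine kinase receptors PDGFRα and PDGFRβ. The A, B and C chains bind PDGFRα, the B chain also binds PDGFRβ with high affinity, and the C and D chains are secreted in a latent form that becomes active once a protease removes an inhibitory domain. In blood vessels, endothelial PDGF-B acts on PDGFRβ of the neighbouring pericytes and smooth muscle cells, whereas in skeletal muscle PDGFRα marks the interstitial fibroblast and fibro-adipogenic cells that lay down matrix. Pdgfrl encodes a protein related to the outer part of the receptors that lacks a kinase domain.

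The matrices held 7905 to 13764 cells per mouse, of which 7250 to 12503 (56766 in all) were kept and grouped into 15 cell types by marker genes, with the PDGF genes left out of the grouping. The mice contributed 64958237 to 72876541 UMIs each in WT and 92652109 to 111826460 in Arom, and the median kept cell held 5895.5 to 6570.5 UMIs in WT and 7038 to 9488 in Arom. Pairs of libraries shared 19 to 48 cell barcodes. Multinucleated muscle fibres had been removed by a filter before capture, so the tissue was represented by its mononuclear cells and by 1391 cells with myonuclear markers. The fibroblast-like group, the receptor-bearing group of greatest size with 22681 cells, was told apart by a marker list (Pdgfra not used) that summed to 46650 CPM (UMIs scaled to a total of 1000000) in these cells and 4370 CPM in the others. Of these cells, 4593 (20.3%) lay in 6 clusters outside the named subgroups, among them 288 cells of a cluster led by endothelial genes (Fabp4, Cldn5) and 55 of one led by muscle fibre genes (Acta1, Ckm). Cthrc1 and Aspn, each a marker of 1 fibroblast subgroup, did not reach 2 times the level of the other cells there, whereas every other marker did. Levels below are CPM of a gene within a cell type, from UMIs summed in each mouse. They are compared for 1 gene across cell types and not between genes. p-values measure the spread between mice, with 3 mice a genotype.

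Of the 4 genes whose transcripts differed between genotypes in Esr1-hi fibroblasts, 3 have a promoter window in the RefSeq table for GRCm38.p6, and these are shown because LAM fibroblasts express the estrogen receptor gene Esr1. Each window spans the 250 bases before 1 annotated transcript start on the plus strand, at chr5:75152001-75152250 for Pdgfra, chr3:81036166-81036415 for Pdgfc and chr9:6168236-6168485 for Pdgfd. Capitals mark the 5-letter motif GGTCA, the core repeated in an estrogen response element, on either strand (TGACC where it lies on the reverse strand).
Pdgfra: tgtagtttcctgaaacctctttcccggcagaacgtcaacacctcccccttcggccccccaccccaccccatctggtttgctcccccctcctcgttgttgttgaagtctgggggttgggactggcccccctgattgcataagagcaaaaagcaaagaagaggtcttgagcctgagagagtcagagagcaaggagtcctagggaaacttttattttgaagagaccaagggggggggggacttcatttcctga
Pdgfc: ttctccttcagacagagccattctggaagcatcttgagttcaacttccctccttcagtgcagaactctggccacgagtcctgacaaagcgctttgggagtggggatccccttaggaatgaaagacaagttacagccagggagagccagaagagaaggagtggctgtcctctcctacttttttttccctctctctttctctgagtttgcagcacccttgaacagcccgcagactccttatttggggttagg
Pdgfd: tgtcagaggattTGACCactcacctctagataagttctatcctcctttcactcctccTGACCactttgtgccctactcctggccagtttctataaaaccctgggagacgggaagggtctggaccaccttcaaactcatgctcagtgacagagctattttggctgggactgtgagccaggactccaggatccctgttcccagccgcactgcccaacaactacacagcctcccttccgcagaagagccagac
The Pdgfd window held 2 copies of the motif, at 238 and 193 bases before that start, and the Pdgfra and Pdgfc windows held 0. The letters GGTCA or TGACC occurred in 35.2% of all 32851 windows, and the full palindrome, GGTCA and its reverse complement TGACC with 3 bases between, occurred in 0.0639% of them and in 0 windows of the family. The gene bodies lie at chr5:75151322-75198206 (Pdgfra), chr3:81036416-81214040 (Pdgfc), chr9:6168363-6534284 (Pdgfd), chr5:138976014-139000792 (Pdgfa), chr15:79995865-80024614 (Pdgfb) and chr8:40926233-40990782 (Pdgfrl). The Pdgfra window lies inside the gene body and the Pdgfd window reaches into it, so each precedes a start downstream of the gene's first. A match of letters is a description of the window and not evidence of binding.

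The 4 ligand genes had different source cells. Pdgfa, which encodes the chain that signals through PDGFRα, was highest in non-myelinating glia, the Schwann cells that wrap thin nerve fibres without myelin. There it stood at 631.5, 588.8 and 629.3 CPM in the WT mice and 723.4, 502.3 and 599.7 CPM in the Arom mice. No mouse's value in any other cell type reached this range. Smooth muscle cells followed with 278.7 ± 52.9 CPM (SD, n = 6), pericytes with 206.3 ± 43.3 CPM and arterial endothelial cells with 206.0 ± 52.5 CPM. The ranges of these neighbours in the order overlapped, although smooth muscle lay above pericytes in each of the 6 mice. With finer clusters (Leiden resolution 2.0) the cells named pericytes held 130.1 ± 30.23 CPM, against 199.8 ± 51.87 CPM in arterial cells. Cells left unnamed there held 9912 of 42541 Pdgfa UMIs, so values with finer clusters describe the cells that kept a name. Fibroblast-like cells held 49.8 ± 17.7 CPM and dendritic cells, the lowest type, 8.14 CPM. A Pdgfa UMI was seen in 70.8 ± 6.51% of the glia and, after each cell was thinned to 1000 UMIs, in 40.0 ± 8.20% (median depth 3940 UMIs).

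Pdgfb, which encodes the ligand that draws mural cells to vessels, was an endothelial transcript with its highest level in capillaries. Capillary endothelial cells held 113.1, 93.97 and 94.94 CPM in WT and 75.94, 98.5 and 95.19 CPM in Arom, and every one of these values lay above those of the next type. They averaged a cluster led by Timp4 and Car4 (131.5 to 178.6 CPM per mouse) and a cluster led by Cldn5 and Sox17 (43.29 to 74.27 CPM), of which the latter overlapped with arterial cells. With finer clusters the cells named capillary held 162.3 ± 17.46 CPM, and cells left unnamed held 48.46 ± 9.777 CPM, with 2846 of 8723 Pdgfb UMIs. Arterial endothelial cells (47.9 ± 10.0 CPM), pericytes (42.6 ± 4.19 CPM) and venous endothelial cells (33.3 ± 21.5 CPM) came next and overlapped in range. Whether endothelial cells caught in the same droplets contributed to the pericyte value was not tested. Macrophages held 20.4 ± 11.2 CPM, whereas fibroblast-like cells were lowest with 0.931 ± 0.322 CPM. A UMI was found in 26.2 ± 6.42% of capillary cells and in 10.4 ± 1.86% after thinning (median depth 3060 UMIs).

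Pdgfc and Pdgfd are the genes of the latent ligands. Pdgfc was highest in mesothelial cells, the lining of the body cavity, at 22.6 ± 8.65 CPM, followed by fibroblast-like cells at 15.7 ± 5.32 CPM and macrophages at 12.5 ± 11.1 CPM, whose ranges overlapped. Capillary and venous endothelial cells were at the other end with 0.253 and 0.189 CPM. Pdgfd was highest in arterial endothelial cells (49.4 ± 6.04 CPM), then in capillary (37.7 ± 4.22 CPM) and mesothelial cells (37.6 ± 15.4 CPM). Arterial cells exceeded capillary cells in each of the 6 mice, though the ranges over mice overlapped. With finer clusters the cells named capillary held 48.48 CPM of Pdgfd against 50.77 CPM in arterial cells, and were the higher in WT2. Pericytes (22.1 ± 3.10 CPM), smooth muscle (18.0 ± 5.53 CPM) and fibroblast-like cells (13.9 ± 1.81 CPM) formed a lower tier of Pdgfd with overlapping neighbours.

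The receptor genes divided the stromal cells. Pdgfra was highest in fibroblast-like cells, at 188.6, 285.2 and 204.2 CPM in WT and 301.1, 321.4 and 200.6 CPM in Arom, and no value of another type came as high. T cells (54.0 ± 57.6 CPM, n = 5 mice), non-myelinating glia (39.4 ± 25.7 CPM) and myelinating Schwann cells (30.2 ± 14.2 CPM) followed with wide and overlapping ranges. The summed fibroblast markers in the glia ranged from 4929 to 9598 CPM in WT and 5795 to 13270 CPM in Arom, and their part in the Pdgfra of glia was not tested. T cells numbered 391 in all, and the part of fibroblast RNA in their Pdgfra was not tested either. Capillary endothelial cells held 2.99 CPM and venous cells 1.64 CPM. A Pdgfra UMI was found in 70.8 ± 4.28% of fibroblast-like cells (median depth 9964 UMIs) against 1.05% of capillary cells (3060 UMIs), and in 20.2 ± 3.03% against 0.348% after thinning.

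Pdgfrb was highest in mural cells, followed by fibroblast-like cells. Smooth muscle cells held 292.2 ± 129.0 CPM and pericytes 196.4 ± 28.7 CPM, and these ranges overlapped although smooth muscle was the higher in each of the 6 mice. With finer clusters the cells that kept the name of pericytes held 257.4 ± 44.07 CPM and were the higher in 3 of the 6 mice. Cells left unnamed there held 3755 of 36169 Pdgfrb UMIs, at 66.22 ± 9.779 CPM. The pericytes comprised a cluster led by Rgs5 (131 to 195 CPM of Pdgfrb per mouse) and a smaller one led by Kcnj8 (672 to 994 CPM), and the latter lay above every smooth muscle value. Fibroblast-like cells held 97.1 ± 10.1 CPM, below every mural value and above every value of the next type, myelinating Schwann cells (16.2 ± 4.20 CPM). A UMI was found in 76.0 ± 5.11% of pericytes and 61.1 ± 7.71% of smooth muscle cells against 1.35% of venous endothelial cells, and in 26.4%, 25.3% and 0.164% after thinning. Their median depths were 9425, 4336 and 6859 UMIs. Pdgfrl followed the fibroblasts: 348.9 ± 78.1 CPM in fibroblast-like cells, without overlap with the next type, and 78.1 ± 11.7 CPM in muscle stem cells. Venous endothelial cells held the least Pdgfrl, 2.05 CPM.

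**Figure D1:**
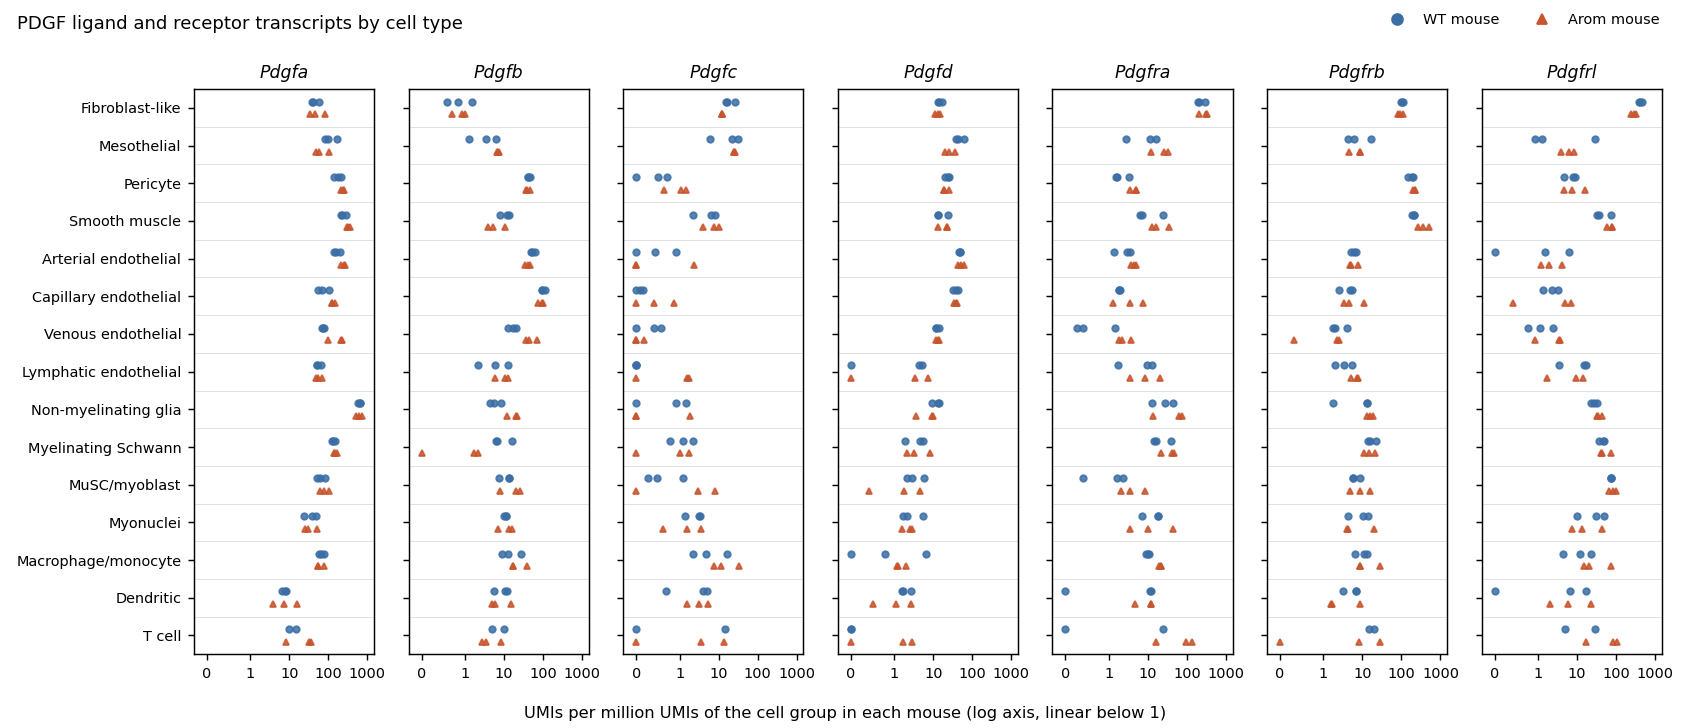
Level of each PDGF gene (CPM, log axis that is linear below 1) in 15 cell types, 1 point per mouse, with circles for WT and triangles for Arom. Pdgfa stands apart in non-myelinating glia, Pdgfb in capillaries, Pdgfra and Pdgfrl in fibroblast-like cells, and Pdgfrb in smooth muscle cells and pericytes.

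Differences between pooled cell types were tested within mouse by edgeR over all genes. Fibroblast-like cells against endothelial cells differed in 7 of 7 genes, where 75.8% of all genes tested passed. Pdgfra was higher by 6.72 ± 0.192 on the log2 scale (SE, adjusted p = 1.159e-08), Pdgfrl by 7.18 ± 0.29, Pdgfc by 6.43 ± 0.301 and Pdgfrb by 4.70 ± 0.145. Pdgfb was lower in fibroblast-like cells, with a log2 difference of -6.11 ± 0.205, and Pdgfa and Pdgfd were lower as well (-1.33 ± 0.223 and -1.06 ± 0.127). Mural cells (pericytes and smooth muscle together) against endothelial cells also differed in 7 of 7 genes, with 53.1% of all genes passing. Pdgfrb was 5.64 ± 0.124 higher in mural cells (adjusted p = 2.352e-10) and Pdgfa 0.68 ± 0.104 higher (adjusted p = 2.749e-04), whereas Pdgfb had a difference of -1.03 ± 0.07. Fibroblast-like cells against mural cells gave 7 of 7 again, with 72.8% of all genes passing. Pdgfra differed by 5.69 ± 0.288 and Pdgfrb by -0.96 ± 0.138 (adjusted p = 2.289e-04), so that each receptor gene was highest in its own stromal compartment.

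Within the mural cells, pericytes against smooth muscle differed in 6 of 7 genes (59.7% of all genes). Pdgfb was 2.29 ± 0.21 higher in pericytes on the log2 scale (adjusted p = 8.691e-07). It stood at 39.7 to 49.3 CPM per mouse in the Rgs5 cluster of pericytes, whereas the shallower Kcnj8 cluster held 1 UMI in each WT mouse and 0 in each Arom mouse. The 0 counts allow up to 10.4 to 23.1 CPM in the Arom mice (3 counts per mouse, counting error only), below every value of the Rgs5 cluster. The pericyte level of Pdgfb thus describes the Rgs5 cluster. In WT1 that cluster held 5619347 UMIs over 457 cells, against 310285 UMIs over 159 cells in the Kcnj8 cluster. In Arom1 these were 2589831 over 256 and 143483 over 75. Whether droplets that also caught endothelial cells contributed to the Pdgfb of pericytes was not tested. Pdgfra (-2.31 ± 0.327), Pdgfc (-3.23 ± 0.488) and Pdgfrl (-2.83 ± 0.201) were lower in pericytes. Pdgfrb differed by -0.46 ± 0.136 (adjusted p = 0.01121), and with finer clusters, among the cells that kept a name, by -0.11 (adjusted p = 0.5023). Pdgfd missed the threshold at 0.34 ± 0.187 (adjusted p = 0.1333). Arterial against capillary endothelial cells differed in 3 of 6 genes tested (44.7% of all genes). Pdgfa was 1.08 ± 0.129 higher in arterial cells (adjusted p = 5.56e-06). With finer clusters it was 3.11 higher, and the cells then named capillary held Pdgfa at 24.43 ± 12.05 CPM against 105.3 ± 36.1 CPM here. Cells left unnamed with finer clusters held 171.9 ± 34.75 CPM, and the part of this renaming in the contrast was not tested. Pdgfd was 0.44 ± 0.094 higher in arterial cells (adjusted p = 0.001377), whereas Pdgfb differed by -0.88 ± 0.099 (adjusted p = 2.845e-06), the capillary cells being the higher.

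The fibroblast subgroups differed among themselves in ligands and receptors. The tenocyte subgroup, cells with tendon markers, was highest as a whole in Pdgfa (161.2 ± 22.6 CPM), Pdgfc (54.3 ± 10.7 CPM) and Pdgfrl (756.3 ± 129.1 CPM). Its clusters differed (means as scaled by edgeR). A cluster led by Chodl held Pdgfc at 18.46 CPM in WT and 28.67 CPM in Arom, against 85.28 and 69.76 CPM in a cluster led by Wif1 and Comp. Pdgfa went the other way, at 198.6 and 245.9 CPM against 102.5 and 102 CPM. The subgroup as a whole was lowest in Pdgfra, at 24.6 ± 12.8 CPM, below every value of the other subgroups. The Tppp3 subgroup reversed that picture, with the highest mean of Pdgfra over the 6 mice (299.0 ± 52.2 CPM, although in Arom alone the Esr1-hi mean of 377.4 CPM exceeded the Tppp3 mean of 268.8 CPM) beside the lowest of Pdgfc (4.28 ± 1.95 CPM) and Pdgfd (3.77 ± 1.07 CPM). In Arom alone the Pdgfc means lay close together, at 4.604 CPM in Esr1-hi and 4.793 CPM in Tppp3 cells (CPM as scaled by edgeR). Among the 5 subgroups with values in every mouse, which leaves out Mmp3-hi cells, the Dmkn-hi subgroup held the lowest Pdgfa (6.25 ± 3.38 CPM), Pdgfrb (52.2 ± 9.31 CPM) and Pdgfrl (156.5 ± 46.2 CPM). Pdgfrb was highest in the Esr1-hi subgroup at 137.3 ± 18.6 CPM. The Angptl1 Prg4 subgroup lay between, with Pdgfra at 266.4 ± 38.7 CPM. In the Esr1-hi subgroup the spread of Pdgfra (245.7 ± 165.3 CPM) and Pdgfrl (457.4 ± 273.8 CPM) over the 6 mice was wide and split by genotype, as given below.

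**Figure D2:**
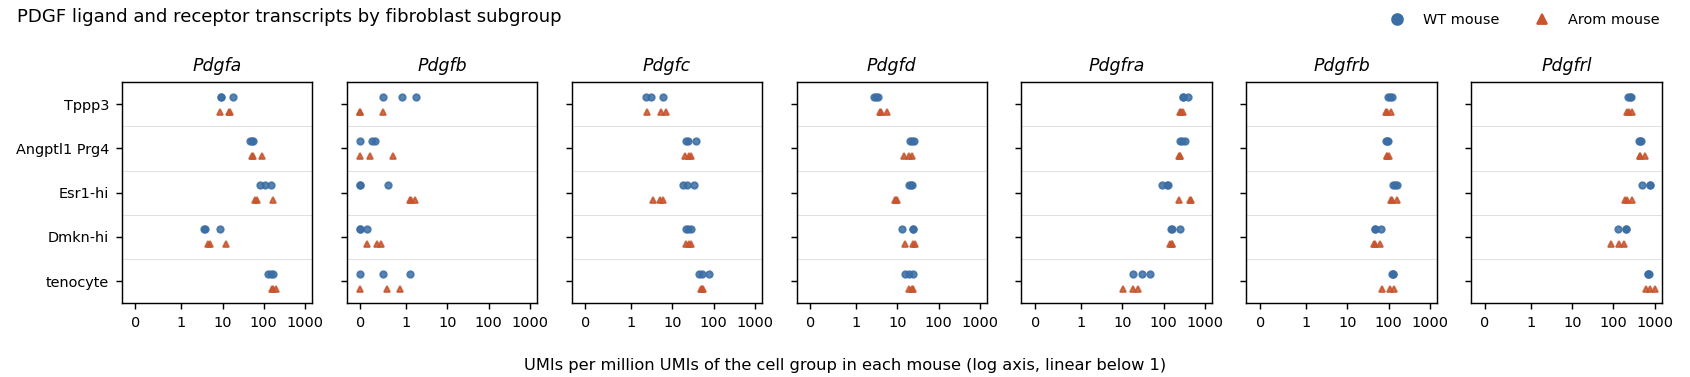
Level of each PDGF gene (CPM, log axis that is linear below 1) in 5 fibroblast subgroups, 1 point per mouse, circles for WT and triangles for Arom. The tenocyte subgroup is low in Pdgfra and high in Pdgfa, Pdgfc and Pdgfrl, and the Esr1-hi subgroup separates by genotype for Pdgfc, Pdgfd, Pdgfra and Pdgfrl.

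UMIs of different family genes were found under the same cell barcode in some types. Shares expected from the separate detection of each gene are not given, so the values below are descriptions. Pdgfra and Pdgfrb UMIs occurred in the same cell in 8604 of 22681 fibroblast-like cells (37.9%; 1.91% after thinning). Pdgfa and Pdgfra occurred together in 15.3% of fibroblast-like cells (0.578% after thinning). Pdgfb and Pdgfrb occurred together in 822 of 3523 pericytes (23.3%; 0.738% after thinning), against 0.628% of capillary endothelial cells (0.0786% after thinning). These pericytes were not split into the Rgs5 cluster, which held nearly all Pdgfb UMIs, and the Kcnj8 cluster, which had the higher Pdgfrb. Whether droplets that caught more than 1 cell contributed to these shares was not tested.

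The genes whose levels ran most like those of each family member across the 15 types were listed by Pearson's r over 11536 genes. Points are types from the same 6 libraries, so r is a description. Pdgfra ran with Lum (0.978), Col1a2 (0.966) and Cpxm1 (0.965), and Pdgfrl with Dpt (0.987), Htra3 (0.969) and Hmcn2 (0.960). Pdgfrb ran with Rgs4 (0.960), Ednra (0.958) and Alkal2 (0.954). Among the ligands, Pdgfb ran with Cd36 (0.956), Fabp4 (0.932) and C1qtnf9 (0.928). Pdgfd ran with Aplp1 (0.926), Pdgfc with Hp (0.905) and Pdgfa with Rusc2 (0.883). Lum, Col1a2, Cd36, Cpxm1 and Hmcn2 had served as markers in naming the cells. Within the family, Pdgfra and Pdgfrl had r = 0.782, and Pdgfb and Pdgfra had r = -0.839.

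The cell types that held the family's UMIs were compared between genotypes beside the makeup of the libraries. Fibroblast-like cells made up 29.7% of kept cells in WT and 47.1% in Arom, and endothelial cells 34.7% and 17.9%. The share of Pdgfa UMIs that lay in fibroblast-like cells was 25.6, 17.1 and 12.1% for WT1 to WT3, against 35.9, 38.8 and 41.8% for Arom1 to Arom3. The Arom mice were all higher, with a difference of 20.5 percentage points (exact permutation test, two-sided p = 0.1, the smallest that 3 against 3 mice allow). For Pdgfb, endothelial cells held 65.9 ± 2.32% of UMIs in WT and 54.2 ± 6.14% in Arom (exact p = 0.1), of which capillaries supplied 53.7% and 25.5% and venous cells 3.18% and 22.3%. For Pdgfc, fibroblast-like cells held 85.7 ± 4.19% in WT and 64.6 ± 4.60% in Arom (exact p = 0.1), with mesothelial cells at 4.43% and 22.1%. The share of Pdgfrb in fibroblast-like cells was 51.1% in WT and 77.5% in Arom (exact p = 0.1), and that of pericytes 36.7% and 10.6%. Pdgfra and Pdgfrl came almost wholly from fibroblast-like cells in either genotype (93.9 ± 1.84% and 95.8 ± 0.161% for Pdgfra, exact p = 0.4). Under the study's own cell limits (at most 2500 genes and 5% mitochondrial UMIs per cell), which kept 18852 cells, the Pdgfa difference turned to -8.02 percentage points and the Pdgfrb difference to -4.73.

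**Figure D3:**
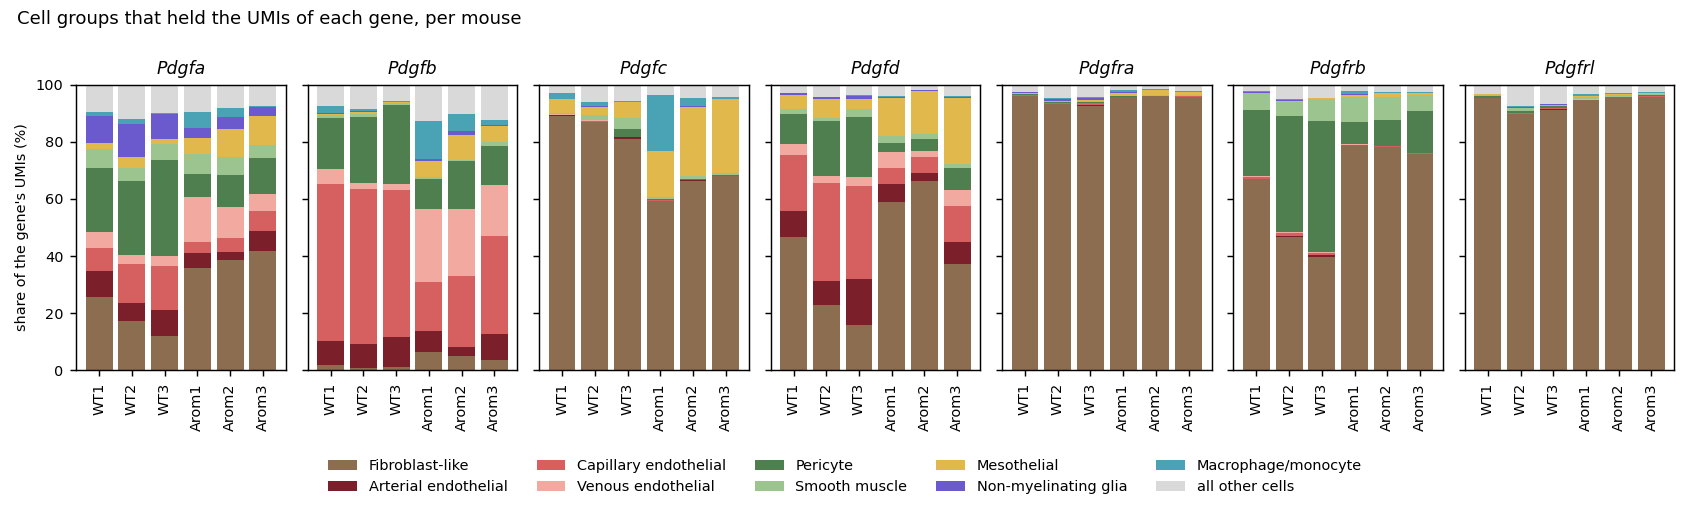
Share of each PDGF gene's UMIs (percent, stacked bars, 1 bar per mouse) contributed by each group of cell types. Fibroblast-like cells supply nearly all Pdgfra and Pdgfrl in every mouse, and the fibroblast part of Pdgfa is 12.1 to 25.6% in WT and 35.9 to 41.8% in Arom.

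Arom and WT mice were compared within each cell type and fibroblast subgroup. Of 102 member values tested in 19 groups, 6 passed an adjusted p of 0.05: 4 in the Esr1-hi subgroup, 1 in the whole fibroblast-like group and 1 in venous endothelial cells. Over the same 19 groups, 3.03% of all genes tested passed. Arom3 lay nearer the WT mice than Arom1 and Arom2 did for several of these genes, and values without it are given for the calls below.

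**Figure D4:**
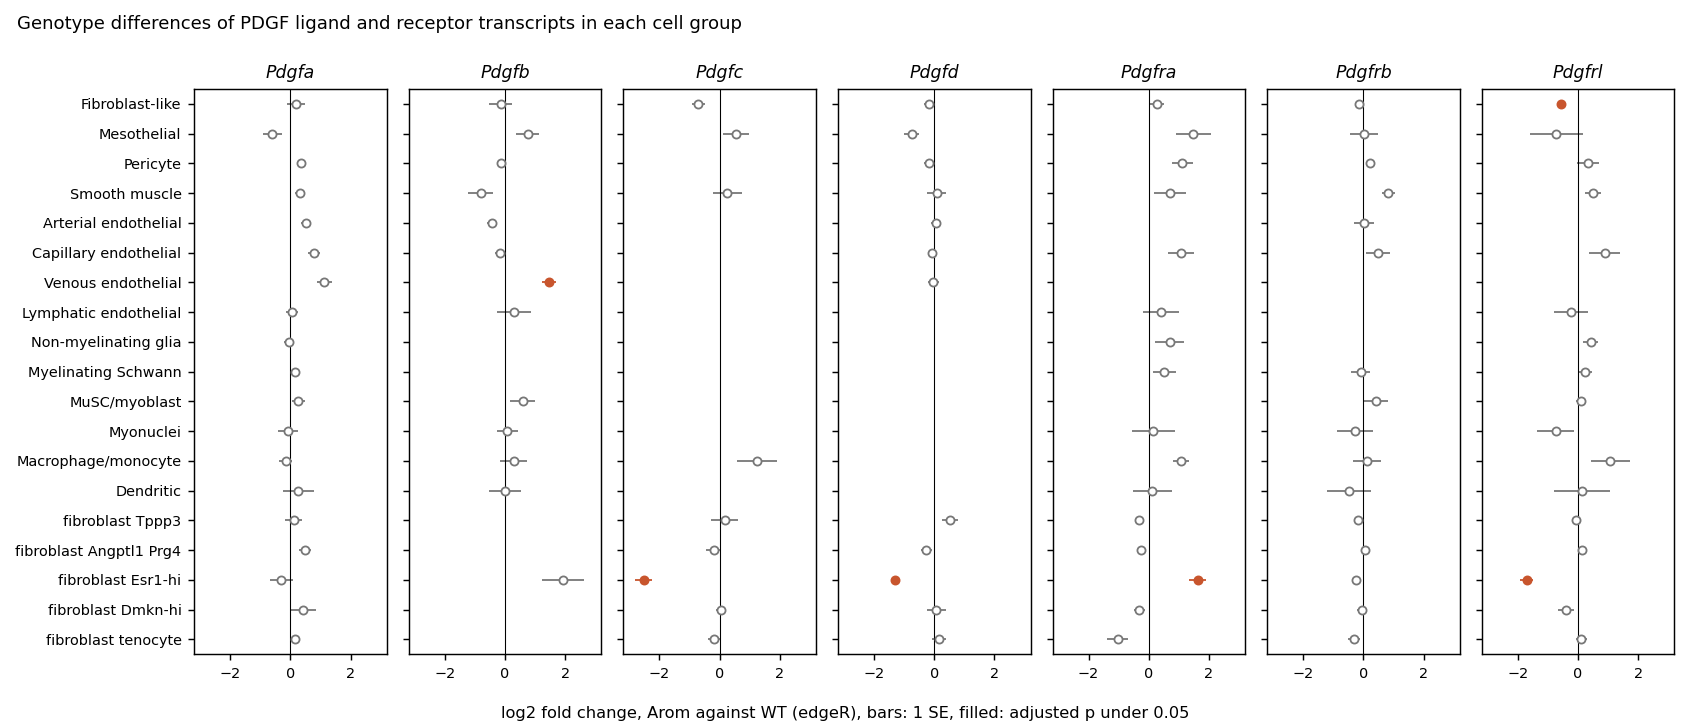
Change of each PDGF gene between genotypes (log2 of Arom over WT, bars are SE, n = 3 mice a genotype) in the 19 groups of cells; filled points passed an adjusted p of 0.05. The 4 filled points of the Esr1-hi subgroup run from -2.53 (Pdgfc) to 1.62 (Pdgfra).

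In Esr1-hi fibroblasts, the subgroup with most Esr1, Pdgfra was higher and Pdgfc, Pdgfd and Pdgfrl were lower in Arom than in WT. These 4 of the family's genes were called where 19.7% of all genes tested were. Pdgfra stood at 126, 123 and 93.2 CPM in the WT mice and 442, 458 and 232 CPM in the Arom mice. Every Arom value lay above every WT value, which held for 21.3% of all genes tested there, and Arom3 was the lowest of its group. The log2 difference was 1.62 ± 0.282 (edgeR, adjusted p = 0.00918), and 1.89 without Arom3. Pdgfrl stood at 501, 785 and 776 CPM in WT and 208, 186 and 289 CPM in Arom, without overlap (-1.71 ± 0.215, adjusted p = 0.00343). Of the ligand genes, Pdgfc was at 33.3, 22.1 and 18.6 CPM in WT and 3.47, 5.05 and 5.89 CPM in Arom. All Arom values were lower, with a log2 difference of -2.53 ± 0.272 (adjusted p = 0.00236). Pdgfd was at 18.9, 23.2 and 21.1 CPM in WT and 8.81, 9.62 and 9.07 CPM in Arom. The groups did not overlap (-1.30 ± 0.143, adjusted p = 0.0026). Every Arom mouse lay below every WT mouse in 19.4% of all genes tested there. The other receptor gene did not pass: Pdgfrb was at 157, 143 and 130.3 CPM in WT and 112, 123 and 159 CPM in Arom (-0.24 ± 0.147, adjusted p = 0.273). Nor did Pdgfa, at 82.7, 106 and 152 CPM in WT and 70.1, 62.1 and 168 CPM in Arom (-0.30 ± 0.370, adjusted p = 0.603). The 4 calls held without any 1 mouse, and without Arom3 Pdgfrl gave -1.89, Pdgfc -2.68 and Pdgfd -1.27.

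The Esr1-hi cells of the genotypes fell into different clusters. The cluster led by Lcn11, Ear2 and Scg5 held 96.1, 97.7 and 97.3% of the Esr1-hi cells of the WT mice and 2.28, 3.71 and 18.4% of those of the Arom mice. A cluster led by Uts2, Ramp3 and Nrg1 (70.0, 62.8 and 39.1%) and a cluster led by Nppc, Pnoc and Wfdc2 (27.7, 33.5 and 42.5%) held the rest of the Arom cells. In the cluster led by Lcn11, the only one that gave enough cells in every mouse, Pdgfra was at 123, 127 and 95.2 CPM in WT and 135, 170.0 and 126 CPM in Arom. These ranges overlapped, and the log2 difference of 0.23 ± 0.18 did not pass (adjusted p = 0.826; 0.0767% of all genes passed there). Of the 6 genes tested in the cluster 0 passed with edgeR, and 3 had an unadjusted p below 0.05. The share of all genes at that unadjusted p is not given here, so the 3 are not read as a result about the family. Pdgfrl in the same cluster differed by -0.59 ± 0.194 (adjusted p = 0.435), Pdgfc by -0.94 ± 0.345 (adjusted p = 0.510) and Pdgfd by -0.61 ± 0.256 (adjusted p = 0.619). The Arom cells of the Uts2 cluster held Pdgfra at 485, 528 and 304 CPM, and those of the Nppc cluster at 349, 328 and 190.0 CPM. Their Pdgfrl lay between 169.6 and 253 CPM, below each value of the Lcn11 cluster. The part of cluster membership in the difference of the whole subgroup was not tested, and the Lcn11 cluster held only 33, 69 and 122 Arom cells. Over the whole subgroup, the summed Esr1-hi marker list was 8236 to 28730 CPM in WT and 29830 to 44970 CPM in Arom, with 6 of 9 markers higher in every Arom mouse. The summed fibroblast list was 47990 to 54240 CPM in WT and 36320 to 40020 CPM in Arom, and the part of these shifts in the PDGF values was not tested.

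**Figure D5:**
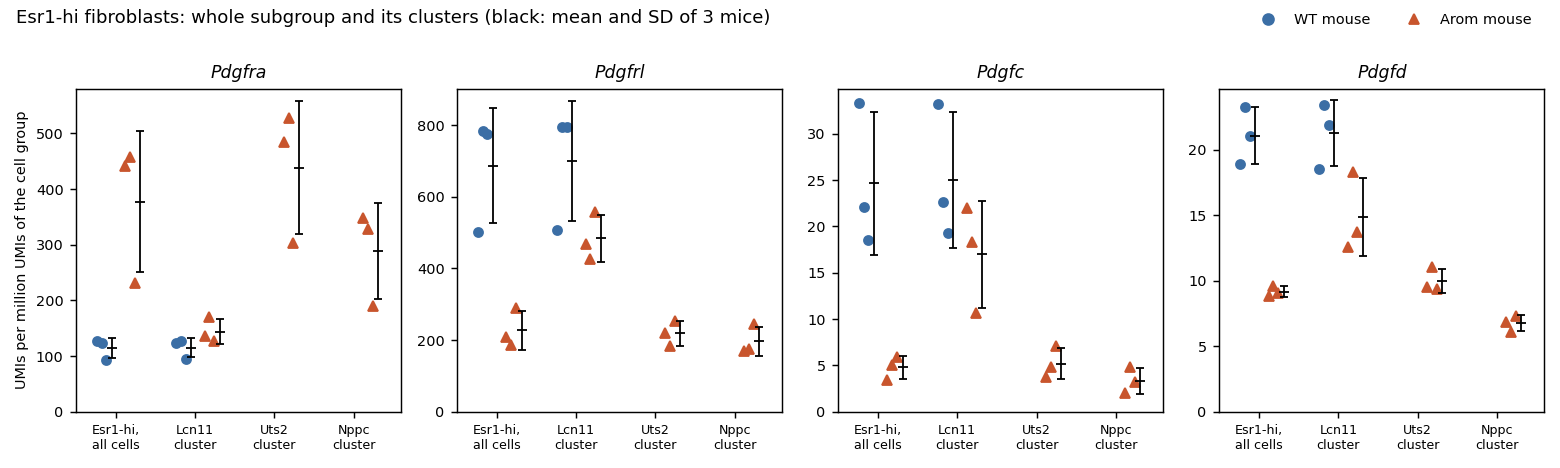
Pdgfra, Pdgfrl, Pdgfc and Pdgfd (CPM) in the Esr1-hi subgroup as a whole and in its Lcn11, Uts2 and Nppc clusters, 1 point per mouse, with mean and SD in black. The genotypes separate in the whole subgroup and come close or overlap within the Lcn11 cluster, the cluster with enough cells of each genotype.

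In the fibroblast-like group as a whole, Pdgfrl was lower in Arom, where the genotypes also fell into different clusters: 6 clusters held 7955 of 15055 Arom cells and 61 of 7626 WT cells. It stood at 377, 404 and 458 CPM in the WT mice and 293, 246 and 316 CPM in the Arom mice, without overlap (18.5% of all genes had every Arom mouse below every WT mouse). The log2 difference was -0.56 ± 0.12 (adjusted p = 0.0343), where 13% of all genes tested passed. Leaving out 1 mouse at a time gave -0.61 to -0.47 with adjusted p from 0.0171 to 0.117, and the call was kept only without Arom3. Over all alternatives it was kept in 8 of 14, with adjusted p from 0.0003516 to 0.3061. With all 6 mice and without the clusters led by endothelial and muscle fibre genes, a setting chosen after seeing the data, it was -0.55 (adjusted p = 0.0365). Outside the Esr1-hi subgroup, Pdgfrl did not pass in the Dmkn-hi (-0.41, adjusted p = 0.470), Tppp3 (-0.06, adjusted p = 0.895), Angptl1 Prg4 (0.14, adjusted p = 0.690) or tenocyte subgroup (0.11, adjusted p = 0.792). The part of cluster makeup in the difference of the whole group was not tested. Pdgfc was at 25.8, 16.3 and 15.7 CPM in WT and 11.99, 12.01 and 12.35 CPM in Arom. Every Arom value was lower, as for 18.5% of all genes, and Pdgfc missed the threshold (-0.71 ± 0.217, adjusted p = 0.0707), which it passed with DESeq2 (adjusted p = 0.01987). Pdgfra overlapped between the genotypes (0.28 ± 0.23, adjusted p = 0.434), as did Pdgfrb (-0.14, adjusted p = 0.377). Pdgfra did not pass in the Dmkn-hi (-0.32, adjusted p = 0.408), Tppp3 (-0.32, adjusted p = 0.344), Angptl1 Prg4 (-0.26, adjusted p = 0.308) or tenocyte subgroup (-1.04, adjusted p = 0.158) either. Whether the genotype difference of Pdgfra in Esr1-hi cells differed from that in these subgroups was not tested.

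In the vessels, Pdgfb of venous endothelial cells was higher in Arom. It stood at 20.0, 16.7 and 12.6 CPM in the WT mice and 44.1, 69.3 and 37.2 CPM in the Arom mice, without overlap (11.7% of all genes had every Arom mouse above every WT mouse). The log2 difference was 1.45 ± 0.238 (adjusted p = 0.0284; 1.07% of all genes passed). Leaving out 1 mouse at a time gave 1.19 to 1.63 with adjusted p from 0.000456 to 0.176, and the call was kept only without Arom3. Over all alternatives it was kept in 7 of 13, with adjusted p from 1.918e-05 to 0.4848. Beside it, the summed capillary markers in venous cells were 1257 to 1742 CPM in WT and 927 to 974 CPM in Arom, with 4 of 6 lower. The arterial list was 91.3 to 108 CPM in WT and 116 to 166 CPM in Arom, the fibroblast list 92.5 to 245 and 251 to 348 CPM, and the venous list overlapped. The part of these lists in the Pdgfb difference was not tested. In capillaries themselves Pdgfb did not pass.

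Pdgfa was called when all endothelial cells were summed, at 87.4, 80.7 and 112 CPM in WT and 206, 181 and 146 CPM in Arom. Every Arom value was higher, as for 19.4% of all genes, by 0.94 ± 0.164 on the log2 scale (adjusted p = 0.00833; 15.1% of all genes passed), and the call held without any 1 mouse. In that sum the venous marker list was 3282 to 5472 CPM in WT and 8515 to 10550 CPM in Arom, and the capillary list 3934 to 5023 and 2266 to 2639 CPM, so the mix of endothelial types moved with it. Within types, venous cells held 78.7, 69.8 and 71.3 CPM of Pdgfa in WT and 220.0, 213.5 and 95.7 CPM in Arom. The WT mice were tight. They lay below each Arom mouse, as for 11.7% of all genes in venous cells, and Arom3 lay far below the other Arom mice (1.12 ± 0.248, adjusted p = 0.0619; 1.39 without Arom3, adjusted p = 3.66e-05). Over all alternatives that adjusted p ran from 3.66e-05 to 0.5266. Capillary cells held 54.9, 69.9 and 106 CPM in WT and 126, 128 and 148 CPM in Arom (0.77 ± 0.199, adjusted p = 0.0736; 1.95% of all genes passed). This difference passed with no filter on low counts (adjusted p = 0.02832), with DESeq2 (0.01152), with the replicate block (0.001637) and without WT3 (0.003713). With finer clusters its adjusted p reached 0.8958 in the cells that kept the capillary name. The capillary cells of the main clusters comprised a cluster led by Timp4 and Car4, with Pdgfa at 15.8, 14.2 and 31.6 CPM in WT and 25.4, 8.90 and 40.2 CPM in Arom, and a cluster led by Cldn5 and Sox17, at 86.6, 144 and 157 CPM in WT and 173, 164 and 212 CPM in Arom. The latter made up 50.9, 35.95 and 50.1% of capillary cells in WT and 59.9, 68.4 and 56.1% in Arom. Within the clusters Pdgfa differed by 0.46 (adjusted p = 0.878) and 0.40 (adjusted p = 0.340). Arterial cells, with the highest endothelial Pdgfa, differed by 0.52 ± 0.1702 (adjusted p = 0.178; 0.708% passed), and passed with the replicate block alone among the alternatives (adjusted p = 0.03048).

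In pooled mural cells 0 of 7 genes passed with edgeR, where 2.27% of all genes did. At an unadjusted p of 0.05, 6 of the 7 passed, and with adjusted p-values 5 did with the replicate block, 3 with DESeq2, 3 without Arom3, 2 with no filter on low counts and 2 of 6 with finer clusters. The shares of all genes that passed in those ways are not given here, so these counts are not read as a result about the family. Pdgfrb of smooth muscle stood at 204.9, 209.4 and 186.6 CPM in WT and 365.9, 519.3 and 267.0 CPM in Arom. The genotypes did not overlap (0.83 ± 0.209, adjusted p = 0.0814). In smooth muscle 1.28% of all genes passed, and 11.9% had every Arom mouse above every WT mouse. Without Arom3 the adjusted p of Pdgfrb was 0.00525, and over all alternatives it ran from 0.00525 to 0.790. Smooth muscle cells comprised a cluster led by Myh11 and a cluster led by H2-M9 and Actg2, which held 50.9, 38.1 and 37.9% of them in WT and 68.2, 65.9 and 48.3% in Arom. In the latter, Pdgfrb was at 288, 224 and 282 CPM in WT and 453, 668 and 400.1 CPM in Arom (0.79 ± 0.204, adjusted p = 0.128), and in the Myh11 cluster at 143, 202 and 142 CPM and 199.9, 201 and 165 CPM (0.15 ± 0.18, adjusted p = 0.790). Pdgfrb of pericytes differed by 0.21 (adjusted p = 0.667). Over pooled mural cells, Pdgfra (1.503 ± 0.363, adjusted p = 0.0607) and Pdgfrl (1.13 ± 0.275, adjusted p = 0.0611) came nearest to the threshold, at levels of 2.13 to 38.2 CPM per mouse. The summed fibroblast markers in the same cells were 692 to 1035 CPM in WT and 1733 to 2796 CPM in Arom, with 5 of 6 higher, and their part was not tested. The difference between genotypes itself differed between cell groups for 2 genes. For Pdgfa it was smaller in mural than in endothelial cells by 0.50 on the log2 scale (-0.50 ± 0.119, adjusted p = 0.0233; 8.05% of all genes passed), and for Pdgfrl it was lower in fibroblast-like than in mural cells (-1.70 ± 0.321, adjusted p = 0.0277; 4.55% passed). With 1 mouse left out at a time the Pdgfa call was lost in 5 of 6 fits (adjusted p from 0.003927 to 0.135) and the Pdgfrl call in 4 of 6 (0.005284 to 0.1144). Between fibroblast-like and endothelial cells, where 11% of all genes passed, Pdgfrl gave -1.06 (adjusted p = 0.0878).

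Over all cells of a library, Pdgfb was lower in Arom, at 22.1, 28.0 and 34.5 CPM in WT and 9.75, 8.89 and 14.1 CPM in Arom. The difference was -1.35 ± 0.211 on the log2 scale (adjusted p = 0.0185; 23.6% of all genes passed), and Pdgfd differed by -0.39 ± 0.10 (adjusted p = 0.0395). In such sums, fewer cells of a type and less RNA per cell cannot be told apart. Pdgfra was at 100, 104 and 58.3 CPM in WT and 197, 221 and 116 CPM in Arom. All its Arom values were higher, as for 23.9% of all genes, and it did not pass (1.06 ± 0.335, adjusted p = 0.0651). Over the alternatives its adjusted p ran from 0.007145 to 0.9883. Summed Pdgfrb differed by 0.04 (adjusted p = 0.806). Both calls over all cells were lost under the study's cell limits and without WT2, WT3, Arom1 or Arom2, and that of Pdgfd also without Arom3 (adjusted p = 0.05198).

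Genes around the receptors were read from lists of co-receptors and ligand-activating proteases, signal transducers, negative regulators and immediate response genes. In Esr1-hi fibroblasts, 6 of 10 immediate response genes were lower in Arom, where 10.2% of all genes were, with a list median of -1.163 on the log2 scale against 0.016 over all genes. They included the transcription factor genes Fos (-2.16), Myc (-1.57) and Egr1 (-1.51). Fos is also among the leading genes of the Lcn11 cluster, which held most WT and few Arom cells. Within that cluster, a fit chosen after seeing the data, 0 of 9 genes tested passed with edgeR and 1 had an unadjusted p below 0.05, with Fos at -0.74 (adjusted p = 0.386), Myc at -0.36 (adjusted p = 0.729), Egr1 at -0.31 (adjusted p = 0.708) and a list median of -0.261 against 0.001 over all genes. In the whole fibroblast-like group 5 of 10 were lower (5.77% of all genes; median -0.689 against 0.007), with Fos at -1.26 and Myc at -0.98. In its Dmkn-hi, Tppp3 and Angptl1 Prg4 subgroups 0 of 10 were lower, and in tenocytes 1 of 9 (medians -0.261 to -0.442). There 0.201 to 0.642% of all genes were lower. Muscle stem cells had a median of -0.752 (1 of 10 lower) and smooth muscle one of -0.484 (0 lower). Among the cell types only mesothelial cells lay above the median of all genes (0.338 against -0.007). The part of cluster makeup was not tested. In no cell type was the part of PDGF signalling, or of the enzymatic digestion before capture, tested. In pooled endothelial cells 4 of 10 were lower (6.47% of all genes; median -0.377 against -0.007), led by Egr1 (-0.94). The mix of endothelial types in that sum moved with genotype, as given above. Within types 0 of 10 were lower in capillary (median -0.018 against -0.014) and arterial cells (-0.291 against -0.002). In venous cells 2 were lower (0.381% of all genes; median -0.361 against 0.011).

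Among the co-receptor and protease genes, 2 of 8 were higher in Arom Esr1-hi cells, where 9.46% of all genes were: Nrp1, whose product binds PDGF ligands and other factors, at 2.71 ± 0.47 (adjusted p = 0.00911), and Lrp1, a receptor that associates with PDGFRβ, at 0.41 (adjusted p = 0.049). The list median was -0.125. Of 13 signal transducer genes in fibroblast-like cells, 2 were higher (7.22% of all genes), led by the kinase gene Src (0.53), and 3 were lower (5.77% of all genes), led by Pik3r1 (-0.68), which encodes a subunit of phosphoinositide 3-kinase, and the adaptor gene Gab1 (-0.67). The list median was -0.008. Of 8 negative regulators, 1 passed in fibroblast-like cells, where 13% of all genes did: Spry1, a feedback inhibitor of receptor tyrosine kinases (-1.19). In Esr1-hi cells, where 19.7% of all genes passed, Spry1 was lower (-1.37) and the phosphatase gene Ptprj higher (0.97). The list medians were -0.148 and -0.097, and both counts lay near the share of all genes. The part of cluster membership in the Esr1-hi values of Nrp1, Lrp1, Spry1 and Ptprj was not tested.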

How the data were processed

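The libraries were 10x Genomics 3' single-cell libraries, 1 per mouse. The authors aligned the reads with Cell Ranger 3.0.2 to the mouse genome mm10 extended with human CYP19A1 (tool and build also in the submitters' processing notes) and deposited raw UMI counts of 16494 genes by 63647 cell barcodes, with no normalization. A filter on genes is not given in the sources used here. A UMI marks a captured molecule, so amplification copies count once.

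From these counts, cells with at least 200 genes, 1000 UMIs and at most 20% mitochondrial UMIs were kept and 1104 doublets (Scrublet in scanpy 1.11.5) left out. The study's upper limits of 2500 genes and 5% mitochondrial UMIs, which kept 18852 cells, were an alternative, because they removed most mural cells. Cells were clustered (2000 variable genes less the PDGF genes, 30 components, 20 neighbours, Leiden resolution 1.0, leidenalg 0.10.2) and clusters were named from marker lists. A total of 4 clusters (1058 cells) stayed unnamed. Fibroblast-like cells were clustered again, and 6 of their 23 clusters stayed outside the named subgroups. Because names were rebuilt, groups may differ from the study's. UMIs were summed per mouse and type with at least 20 cells in every mouse. T cells, with 19 in WT3, have levels from 5 mice and no genotype test.

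Genotypes, types (mouse as block) and their interaction were tested over all genes with the quasi-likelihood test of edgeR 4.0.16 (R 4.3.3; TMM, filterByExpr, Benjamini-Hochberg), and DESeq2 1.42.0 was an alternative. Further alternatives were RLE size factors, no filter on low counts, every clustered barcode, Leiden resolution 2.0, the replicate block and each mouse left out. Source shares were compared by exact permutation. On simulated counts the tests found 55.1 to 84.2% of 2-fold and 86.6 to 100% of 4-fold changes, with 2.03 to 6.49% of calls false. The family's members were named in every type, pathway genes were named as the called genes of largest change (up to 3 per list and type), and the most alike genes as the 3 of highest r on log2(mean CPM + 1) among genes with at least 10 CPM in a type. The members and lists were chosen with earlier results of these data known. Promoter windows came from RefSeq's GRCm38.p6 table. Its windows were matched by symbol for 4 of the 7 genes and are shown for 3. The result of 1 pathway gene is not reported here.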

Additional observations from a re-analysis of the deposited data

Results flagged for a closer look

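The change of Pdgfa between genotypes differed between cell groups by a test of the difference itself. In mural cells the summed Pdgfa was 188, 144 and 224 CPM in WT and 279, 239 and 266 CPM in Arom, and in endothelial cells 87.4, 80.7 and 112 CPM in WT and 206, 181 and 146 CPM in Arom. The interaction (mural less endothelial) was -0.50 ± 0.119 on the log2 scale (edgeR, adjusted p = 0.0233). Over the alternatives it ran from -0.65 to -0.23 with adjusted p from 0.003927 to 0.9903. With 1 mouse left out at a time the call was lost in 5 of 6 fits and kept without Arom3. Within types the Pdgfa difference was 0.52 in arterial, 0.77 in capillary and 1.12 in venous cells. It was 0.36 in pericytes and 0.32 in smooth muscle, and none of these passed. The mix of endothelial types moved with the pooled sum, as given above, and its part in the interaction was not tested.

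The change of Pdgfrl differed in the same way between fibroblast-like cells, where it was lower in Arom, and mural cells, where Arom mice held 38.2, 24.6 and 19.7 CPM against 13.96, 14.36 and 7.93 CPM in WT. The interaction was -1.70 ± 0.321 (adjusted p = 0.0277), and over the alternatives it ran from -2.06 to -1.35 with adjusted p from 7.135e-05 to 0.3594. With 1 mouse left out at a time this call was lost in 4 of 6 fits. The fibroblast markers that moved with Pdgfrl in mural cells were given above, and their part was not tested.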

How the results depend on the processing

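The 6 genotype calls by cell type became 10 with no filter on low counts, 10 with DESeq2 and 2 under the study's cell limits (14 groups fitted, in which the main setting gave 6). Only 47 member values could be tested under those limits, against 102 in the main setting, so a call may be absent there for want of a test. Leiden resolution 2.0 gave 2 in the 13 groups it could fit, where the main setting also gave 2. Leaving out 1 mouse gave 4 to 12, the latter without Arom3. Single clusters fitted alone, chosen after seeing the data, gave 0 of 90 values with edgeR (22 at an unadjusted p under 0.05). With the replicate block there were 12 calls, 3 over all cells and 5 of 7 in pooled mural cells. The shares of all genes called under the alternatives, or at an unadjusted p under 0.05, are not given beside the counts of this section. The study processed 1 WT and 1 Arom littermate per date, but the sources used here do not tie the numbers to litters or dates. Deviations of same-numbered mice correlated at 0.246, -0.025 and 0.304 over all cells, and those of differently numbered mice at -0.327 to 0.192. All 3 same-numbered pairs exceeded 0.1 in 1 of 10 groups checked, the pericytes (0.219, 0.154 and 0.252). Whether the numbers pair the mice was thus not settled.

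The 2 calls over all cells became 0 under the study's limits (0 of 7 at an unadjusted p under 0.05) and 0 to 3 when 1 mouse was left out, 0 being without WT2, WT3, Arom1 or Arom2 (2 to 3 unadjusted). The 2 interaction calls became 4 with no filter, 5 with DESeq2 and 0 under the limits (6 unadjusted). With 1 mouse left out they were 0 (WT2 or WT3; 7 and 8 unadjusted), 1 (WT1 or Arom1) and up to 6 (Arom3). The 30 contrast calls were 30 to 31 without a mouse. The share of fibroblast-like cells with a Pdgfra UMI, 70.8%, was 20.22% after thinning.

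Some directions turned under the study's limits. The Pdgfa source share gave -8.02 points (17.4 to 24.2 without a mouse), Pdgfra -2.02, Pdgfrb -4.73 and Pdgfrl -1.34. In fibroblast-like cells Pdgfa gave -0.36, Pdgfd 0.05 and Pdgfra -0.15 on the log2 scale, Pdgfa in Esr1-hi cells 0.02 and in Angptl1 Prg4 cells -0.53, Pdgfra in tenocyte cells 0.21 and over all cells -0.02, and the Pdgfd contrast of fibroblast-like against mural cells 0.07. With 1 mouse left out, Pdgfa in fibroblast-like cells ran from -0.21 (without Arom3) to 0.41 and Pdgfb from -0.42 to 0.24 (without WT3). Without the 2 unnamed fibroblast clusters led by endothelial and muscle genes, chosen after seeing the data, Pdgfb gave 0.46. The cause was not tested. Of all values recomputed, 962 were rated the same, 54 weaker, 60 stronger, 15 reversed and 7 moved otherwise. Tested differences were rated by direction and side of the threshold and source shares by direction alone. Counts of calls were rated by their ratio, and shares of cells with a UMI by their SD. Depth limits Pdgfc, which was near 0 CPM in many types, and Pdgfb in fibroblast-like cells.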

Other observations

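A few fibroblast clusters held cells of Arom mice almost alone and so entered no genotype test of their own. In a cluster led by Saa3 and Serpinb2 (345, 605 and 1 cells in Arom1, Arom2 and Arom3), Pdgfra stood at 294 and 343 CPM and Pdgfrl at 424 and 475 CPM in Arom1 and Arom2. Its Pdgfd of 20.5 and 22.1 CPM lay in the range of the Dmkn-hi subgroup, and its Pdgfrb was low at 39.5 and 46.4 CPM.

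A cluster led by Ahsg and Fetub (464, 410 and 71 Arom cells) held Pdgfra at 211, 230.2 and 189 CPM and Pdgfrb at 50.3, 65.3 and 42.1 CPM. The Mmp3-hi cluster (290, 534 and 5 Arom cells) held Pdgfra at 158 and 166 CPM, Pdgfrl at 281 and 181 CPM and Pdgfa at 5.14 and 5.54 CPM in Arom1 and Arom2. Arom3 had few cells in the first and last of these clusters.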
